A study of Homo sapiens with 6 samples.

Results

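The fibrillar collagens are the collagens that assemble into the striated fibrils of connective tissue, and the genes described here encode the chains of types I, III, V, XI and XXVII. The 8 genes, COL1A1, COL1A2, COL3A1, COL5A1, COL5A2, COL5A3, COL11A1 and COL27A1, were taken by symbol from a table of 23355 genes. All 8 were found, and all 8 passed the filter on low counts that left 14053 genes for testing. The table comes from HFL-1 cells, an established line of human fetal lung fibroblasts, that received either the non-targeting control siNTC or an siRNA against TAZ, of which there were 2, siTAZ #1 and siTAZ #2. RNA was taken 48 h after transfection, and each of the 3 groups has 2 libraries labelled as replicates, 6 libraries in all. Every group received an siRNA with the same transfection reagent, no untransfected cells were analysed here, and all libraries come from a single cell line.

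Collagen chains are made as procollagens, which are hydroxylated and folded in the endoplasmic reticulum, trimmed outside the cell, laid into fibrils and crosslinked. The usual type I molecule joins a pair of COL1A1 chains with a single COL1A2 chain, although a homotrimer of COL1A1 chains also exists. Type III is a homotrimer of COL3A1 chains, and type V, most often built of COL5A1 and COL5A2, is buried in type I fibrils and limits their diameter. Types XI and XXVII are best known from cartilage. Lung fibroblasts are the main source of types I and III in lung tissue, and their excess is a hallmark of fibrosis. TAZ, the protein of the WWTR1 gene, is a transcriptional coactivator of the Hippo pathway that acts on DNA through TEAD factors.

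The counts on genes summed to between 15648055 and 32078188 per library. WWTR1 was at 132 and 131 CPM (counts scaled to a common library size by TMM normalization) with siNTC, at 26.4 and 28.4 CPM with siTAZ #1, and at 46.1 and 43.1 CPM with siTAZ #2, so that the groups labelled siTAZ were apart from siNTC. Its log2 fold change was -2.26 with siTAZ #1 and -1.56 with siTAZ #2. The 10 fibroblast markers examined were all tested and summed to between 18280 and 19385 CPM in the 6 libraries. Of these, 1 fell and 4 rose with siTAZ #1, against 9.78% and 10.8% of all genes tested. With siTAZ #2, 2 of the markers fell and 4 rose, against 14.4% and 14.1%. Of the defining markers of other cell types, 3 of 8 epithelial, 4 of 6 endothelial and 5 of 6 immune genes were under 1 CPM in every library. These lists summed to 44.6 to 66.7, 26.7 to 47.4 and 38.3 to 75.9 CPM. The highest gene of each list was KRT18, TEK and CD68. With siNTC, KRT18 was at 34.6 and 36.2 CPM, TEK at 41.2 and 41.0 CPM, and CD68 at 73.8 and 75.1 CPM. In siTAZ #1 replicate 2, the counts from RANGAP1 (chromosome 22, from 41640783 on GRCh37) to the end of chromosome Y were nearly missing. That region took 0.246% of the counts of this library and 3.58% to 3.74% of those of the others. No fibrillar collagen gene lies there. The region raised the common dispersion of the fit, however, which was 0.0807 with its 576 tested genes and 0.0163 without them. Calls of the 8 genes that change without this library are given both ways. Of the genes examined below for their role in collagen biology, BGN and TIMP1 lie in the region.

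Both siRNAs lowered COL1A2 and COL5A2, but they moved several of the other chains apart. With siTAZ #1, 5 of the 8 genes fell (COL1A1, COL1A2, COL5A1, COL5A2 and COL11A1). By edgeR's quasi-likelihood test 0 of the 8 rose at FDR under 0.05, and 1 did at an unadjusted p under 0.05 (COL27A1), the same number as with DESeq2, while edgeR's exact test also gave 0. Among all genes tested, 9.78% were called lower and 10.8% higher with siTAZ #1. With siTAZ #2, 4 genes fell (COL1A2, COL3A1, COL5A2 and COL5A3) and 3 rose (COL5A1, COL11A1 and COL27A1), against 14.4% and 14.1% of all genes. COL5A1 and COL11A1 were called in opposite directions by the 2 siRNAs, as were 1.52% of all genes. The median log2 fold change of the 8 genes was -0.63 with siTAZ #1 and -0.06 with siTAZ #2, where the medians of all genes tested were 0.02 and 0.01. These comparisons share the siNTC libraries, and the counts rest on them. Without siNTC replicate 1 or siNTC replicate 2, 2 of the 8 genes fell with siTAZ #1 and 1 with siTAZ #2. The calls over all genes were fewer too, with 2.06% and 1.89% lower with siTAZ #1 and 5.29% and 4.88% lower with siTAZ #2 in these fits. Without siTAZ #2 replicates 1 and 2, 1 and 2 of the 8 genes fell with siTAZ #2, against 6.79% and 6.87% of all genes. Without siNTC replicate 1 or siTAZ #2 replicate 1, 1 gene rose with siTAZ #2, against 4.3% and 6.49% of all genes. Without siTAZ #1 replicate 2, the library with near-missing counts, 6 genes fell with siTAZ #1 (11.1% of all genes), and with siTAZ #2 4 fell and 4 rose (20.6% and 20.8% of all genes).

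Compared directly, siTAZ #1 left 3 of the 8 genes lower than siTAZ #2 did (COL1A1, COL5A1 and COL11A1) and 1 higher (COL5A3). Of all genes tested, 13.4% were lower and 15.2% higher in this comparison. Without siTAZ #1 replicate 2, 5 genes were lower and 1 higher, against 15.8% and 17.1% of all genes. The median difference of the 8 genes was -0.36 on the log2 scale, and that of all genes was -0.01. In 3 of the 8 genes (COL1A2, COL3A1 and COL5A2) the 4 siTAZ libraries were all below both siNTC libraries, as in 17.5% of all genes, and in 1 (COL27A1) they were all above, as in 18.6%. In the other 4 the siTAZ libraries were not all on the same side of siNTC. In bulk RNA, a lower share of cells that make a transcript and less transcript per cell cannot be told apart.

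**Figure D1:**
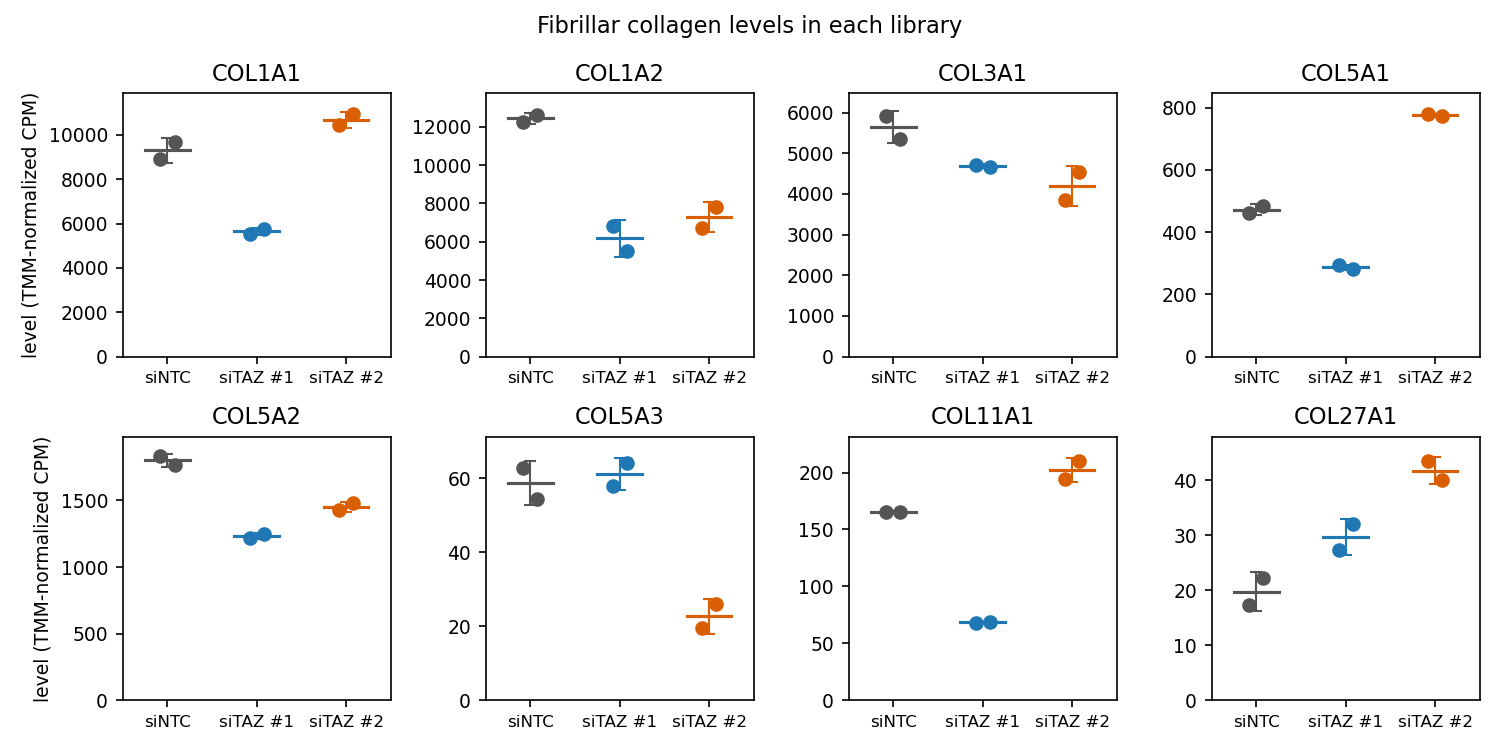
TMM-normalized CPM (y axes, linear and starting at 0) of the 8 fibrillar collagen genes in siNTC, siTAZ #1 and siTAZ #2, with a point for each library, a horizontal line at the mean and bars of 1 SD. COL1A2, COL3A1 and COL5A2 were below siNTC in all 4 siTAZ libraries, whereas COL1A1, COL5A1 and COL11A1 were below siNTC with siTAZ #1 and above it with siTAZ #2.

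Among the 8 genes, the chains of type I collagen came first in CPM in every library. COL1A1 lies on chromosome 17 of GRCh37 from 48261462 to 48278993 on the minus strand. It was at 8915 and 9700.3 CPM with siNTC, at 5539 and 5768 CPM with siTAZ #1, and at 10435 and 10925 CPM with siTAZ #2. The siTAZ #1 libraries were thus the lowest and the siTAZ #2 libraries the highest, and no pair of groups overlapped. The level fell with siTAZ #1 to 0.607 of siNTC (log2 fold change -0.72, standard error 0.10, FDR 0.00624). With siTAZ #2 the log2 fold change was 0.20 (standard error 0.10, FDR 0.175), which did not pass the threshold. The siRNAs differed by -0.92 (standard error 0.10, FDR 0.00221). That difference kept its call in all 20 alternatives.

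The call for COL1A1 with siTAZ #1 depended on the control libraries, with an FDR of 0.0625 without siNTC replicate 1 and 0.0846 without siNTC replicate 2. The exact test ended it too (FDR 0.108), and over the 20 alternatives the FDR ranged from 2.5e-12 to 0.108. The COL1A1 transcript is rich in G and C, at 61.5% GC, where the median gene tested was at 48.3%. With an offset for GC content, the log2 fold change of COL1A1 with siTAZ #2 turned to -0.05, so its direction with this siRNA was not settled. The same value passed the threshold in 3 of the 20 alternatives, among them without siTAZ #1 replicate 1 (FDR 0.0132) and without siTAZ #1 replicate 2 (FDR 0.0122), in a range of 0.0122 to 0.753.

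COL1A2 lies on chromosome 7 from 94024207 to 94060539 on the plus strand. It was at 12243 and 12632 CPM with siNTC, at 6844 and 5503 CPM with siTAZ #1, and at 6729.9 and 7834 CPM with siTAZ #2. All 4 siTAZ libraries were well below siNTC, and the siTAZ groups overlapped each other. COL1A2 fell to 0.496 of siNTC with siTAZ #1 (log2 fold change -1.01, standard error 0.14, FDR 0.00712) and to 0.585 with siTAZ #2 (log2 fold change -0.77, standard error 0.14, FDR 0.0121). The siRNAs differed from each other by -0.24 (standard error 0.14, FDR 0.263), within 2 standard errors of 0. Without siTAZ #1 replicate 1 this difference was -0.40 and passed the threshold (FDR 0.000607), in a range of 0.000607 to 0.777. The directions against siNTC held in all 20 alternatives. The calls did not. Leaving out siNTC replicate 1 gave FDRs of 0.0713 and 0.0822 for siTAZ #1 and siTAZ #2, and leaving out siNTC replicate 2 gave 0.0760 and 0.0944. Leaving out siTAZ #2 replicate 1 also ended the call for that siRNA (FDR 0.0810). Over the alternatives the FDR ranged from 7.19e-15 to 0.0760 for the first siRNA and from 1.99e-14 to 0.0944 for the second.

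COL1A2 was thus called lower with both siRNAs, and the bases upstream of its start are shown because it is the type I chain whose fall was called in each comparison. The run holds the 250 bases before the start of the canonical transcript on GRCh37, 5′ to 3′ on the gene's strand, from chr7:94023957-94024206 (plus). Capitals mark matches on either strand to GGAATG, the core letters of the TEAD motif, to CCAAT, the box bound by NF-Y, and to GGGCGG, the GC box bound by SP1.
COL1A2: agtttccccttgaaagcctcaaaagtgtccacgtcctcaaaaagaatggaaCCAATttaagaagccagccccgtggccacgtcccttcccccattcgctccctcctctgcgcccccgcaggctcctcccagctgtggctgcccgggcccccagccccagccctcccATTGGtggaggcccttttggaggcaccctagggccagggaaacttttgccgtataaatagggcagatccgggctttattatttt
The COL1A2 run holds 2 CCAAT boxes, at 199 to 195 bases before the start and, on the opposite strand, at 84 to 80 bases. Among 18758 upstream runs of the same length, 9.72% held GGAATG, 34.2% CCAAT and 60.3% GGGCGG. A match describes the letters of this window alone, and binding was not measured.

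To compare the chains within a library, the ratio of COL1A1 to COL1A2 was computed per transcript length, which needs no scaling between libraries. It was 0.625 and 0.659 with siNTC, 0.694 and 0.899 with siTAZ #1, and 1.33 and 1.20 with siTAZ #2. COL1A2 exceeded COL1A1 in every siNTC and siTAZ #1 library, and COL1A1 exceeded COL1A2 in both siTAZ #2 libraries. The group means were 0.642 ± 0.0241, 0.797 ± 0.145 and 1.26 ± 0.0946 (SD, n = 2 libraries each). The ratio with siTAZ #2 was 1.97 times that with siNTC (log2 difference 0.98), and with siTAZ #1 1.23 times (log2 difference 0.30). A two-sided exact permutation test gave p = 0.333 for each pair of groups, the smallest value that 2 libraries against 2 allow, and p = 0.133 for the 4 siTAZ against the 2 siNTC libraries, the smallest that design allows.

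The GC contents of the type I transcripts differ, at 61.5% for COL1A1 and 54.5% for COL1A2. Over the 13432 tested genes with a known GC content, the log2 fold change had a Pearson r with GC content of -0.05 with siTAZ #1 and 0.13 with siTAZ #2, and of -0.19 for siTAZ #1 against siTAZ #2. With an offset for GC content, the log2 difference of the ratio from siNTC was 0.21 with siTAZ #1 and 0.70 with siTAZ #2. The crossing of the chains also depends on the lengths assumed. With the merged exons of all annotated isoforms in place of the canonical transcript, the mean ratios were 0.898, 1.11 and 1.77, which kept the order of the groups and put COL1A1 above COL1A2 with siTAZ #1 on average. The value with siTAZ #1 rested on its libraries, with a log2 difference of 0.49 without siTAZ #1 replicate 1 and 0.11 without siTAZ #1 replicate 2.

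**Figure D2:**
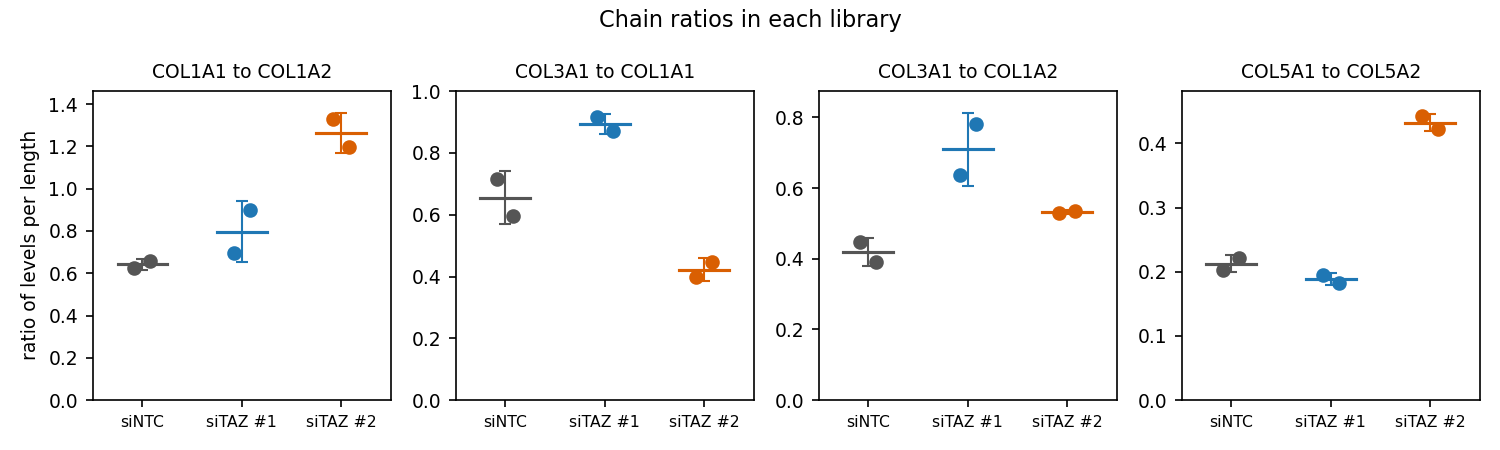
Ratios of the levels per transcript length of named pairs of chains (y axes, linear and starting at 0, no unit) in siNTC, siTAZ #1 and siTAZ #2, with a point for each library, a line at the mean and bars of 1 SD. With siTAZ #2, COL1A1 to COL1A2 lay above 1, at 1.33 and 1.20, and COL5A1 to COL5A2 was at 0.442 and 0.423 where siNTC was at 0.203 and 0.222.

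COL3A1, the chain of type III collagen, lies on chromosome 2 from 189839099 to 189877472 on the plus strand, with COL5A2 next to it in the opposite orientation, from 189896624 to 190090038. COL3A1 was at 5926 and 5361 CPM with siNTC, at 4717 and 4660.3 CPM with siTAZ #1, and at 3849 and 4544 CPM with siTAZ #2. The groups did not overlap, and the siTAZ #2 libraries were the lowest. COL3A1 fell with siTAZ #2 to 0.744 of siNTC (log2 fold change -0.43, standard error 0.11, FDR 0.0395), and its log2 fold change with siTAZ #1 was -0.27 (standard error 0.11, FDR 0.156). The siRNAs differed by 0.16 (standard error 0.11, FDR 0.350). Leaving out any single library of the comparison with siTAZ #2 ended the call, at FDRs of 0.217 and 0.125 without siNTC replicates 1 and 2 and of 0.180 and 0.0630 without siTAZ #2 replicates 1 and 2 (range over the alternatives 9.47e-05 to 0.217). Leaving out siTAZ #1 replicate 1 (FDR 0.0255) or siTAZ #1 replicate 2 (FDR 0.0489) brought the value with siTAZ #1 past the threshold, as did the fit without the region of near-missing counts, in a range of 0.0255 to 0.718. With the GC offset that value was -0.17.

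COL3A1 was then set against the type I chains. The ratio per length of COL3A1 to COL1A1 was 0.716 and 0.595 with siNTC, 0.917 and 0.870 with siTAZ #1, and 0.397 and 0.448 with siTAZ #2. It was highest with siTAZ #1 and lowest with siTAZ #2, with no overlap between groups. The log2 difference from siNTC was -0.63 with siTAZ #2, or -0.30 with the GC offset, and 0.45 with siTAZ #1, or 0.54 with the offset. The ratio to COL1A2 was 0.447 and 0.392 with siNTC, 0.637 and 0.782 with siTAZ #1, and 0.528 and 0.536 with siTAZ #2, and it was above siNTC in all 4 siTAZ libraries. For the 4 siTAZ against the 2 siNTC libraries, the exact permutation test gave p = 0.8 for the first of these ratios and p = 0.133 for the second.

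The type V chains moved in different directions. COL5A1 (chromosome 9, 137533649 to 137736689, plus strand), whose loss-of-function alleles cause classical Ehlers-Danlos syndrome, was at 461 and 484 CPM with siNTC, at 293 and 281 CPM with siTAZ #1, and at 779 and 772 CPM with siTAZ #2. The libraries of each group were close together and the groups far apart. COL5A1 fell to 0.607 of siNTC with siTAZ #1 (log2 fold change -0.72, standard error 0.07, FDR 0.00316) and rose to 1.64 times siNTC with siTAZ #2 (log2 fold change 0.71, standard error 0.07, FDR 0.00214). The siRNAs differed by -1.43 (standard error 0.08, FDR 0.000532). The rise with siTAZ #2 and the difference between the siRNAs kept their calls in all 20 alternatives, and with the GC offset the rise was 0.55. The fall with siTAZ #1 lost its call in the exact test alone (FDR 0.0967, range 7.1e-12 to 0.0967).

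COL5A2 (chromosome 2, minus strand), which has a GC content of 48.3% against 60.2% for COL5A1, was at 1836 and 1768 CPM with siNTC, at 1215 and 1248 CPM with siTAZ #1, and at 1425 and 1477 CPM with siTAZ #2. All 4 siTAZ libraries were below siNTC, and those of siTAZ #1 were the lowest. COL5A2 fell to 0.683 of siNTC with siTAZ #1 (log2 fold change -0.55, standard error 0.08, FDR 0.00688) and to 0.805 with siTAZ #2 (log2 fold change -0.31, standard error 0.08, FDR 0.0303). The siRNAs differed by -0.24 (standard error 0.08, FDR 0.0664), a difference that passed the threshold in 8 of the 20 alternatives, in a range of 0.0282 to 0.748. These included DESeq2 (FDR 0.0400), the GC offset (FDR 0.0282), the fit without siTAZ #1 replicate 2 (FDR 0.0305) and the fit without the region of near-missing counts (FDR 0.0312).

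The calls for COL5A2 were less stable than those for COL5A1. With siTAZ #1, its FDR was 0.0835 without siNTC replicate 1, 0.0709 without siNTC replicate 2 and 0.279 in the exact test, with a range of 6.85e-08 to 0.279. With siTAZ #2, the FDR was 0.175 and 0.133 without siNTC replicates 1 and 2, and 0.141 and 0.0967 without siTAZ #2 replicates 1 and 2. An offset for GC content also ended that call (log2 fold change -0.18, FDR 0.106, range 0.00112 to 0.175).

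The ratio per length of COL5A1 to COL5A2 was 0.203 and 0.222 with siNTC, 0.195 and 0.182 with siTAZ #1, and 0.442 and 0.423 with siTAZ #2. COL5A2 exceeded COL5A1 in every library, and the siTAZ #2 libraries stood apart from the other 4. The ratio was 2.04 times that of siNTC with siTAZ #2 (log2 difference 1.03) and 0.889 times with siTAZ #1 (log2 difference -0.17). With the GC offset, the difference with siTAZ #2 was 0.73. The exact permutation p was 0.333 for each pair of groups. The ratio of COL5A1 to COL1A1 was 0.0356 ± 0.000855 with siNTC, 0.0356 ± 0.00212 with siTAZ #1 and 0.0509 ± 0.00197 with siTAZ #2 (SD, n = 2 each).

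The upstream run of COL5A1, shown because this chain was called in opposite directions with the siRNAs, was taken in the same manner from chr9:137533399-137533648 (plus).
COL5A1: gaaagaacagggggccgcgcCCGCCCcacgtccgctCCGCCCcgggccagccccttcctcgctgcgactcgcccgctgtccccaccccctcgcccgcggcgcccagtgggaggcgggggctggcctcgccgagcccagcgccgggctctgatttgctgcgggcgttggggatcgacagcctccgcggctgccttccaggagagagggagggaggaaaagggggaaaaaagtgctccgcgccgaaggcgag
The COL5A1 run is 74% G and C and holds 2 GC boxes on the opposite strand, 230 to 225 and 214 to 209 bases before the start. Of the other members described here, COL3A1 held none of the letters searched, COL5A3 held 1 CCAAT box and 1 GC box, COL11A1 1 CCAAT box and 3 GC boxes, and COL27A1 2 GC boxes.

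COL5A3, a type V chain made in smaller amounts, lies on chromosome 19 from 10070237 to 10121180 on the minus strand. It was at 62.9 and 54.5 CPM with siNTC, at 58.1 and 64.2 CPM with siTAZ #1, and at 19.4 and 26.1 CPM with siTAZ #2. Only the siTAZ #2 libraries stood apart, while siTAZ #1 and siNTC overlapped. COL5A3 fell with siTAZ #2 to 0.387 of siNTC (log2 fold change -1.37, standard error 0.18, FDR 0.00414), and this call held in all 20 alternatives (highest FDR 0.0403). With siTAZ #1 the log2 fold change was 0.06 (standard error 0.18, FDR 0.841), and its sign was not settled, at -0.05 without siNTC replicate 2, -0.02 without siTAZ #1 replicate 2 and -0.03 with the GC offset. Its level with siTAZ #1 was 2.69 times that with siTAZ #2 (1.43 on the log2 scale, standard error 0.18, FDR 0.00360). Of the 8 transcripts it has the highest GC content, 64.2%, and the offset made its fall with siTAZ #2 larger, at -1.77.

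COL11A1, the type XI chain that also joins type V chains in mixed molecules, lies on chromosome 1 from 103342023 to 103574428 on the minus strand. It was at 166 and 165 CPM with siNTC, at 68.1 and 68.4 CPM with siTAZ #1, and at 195 and 209.8 CPM with siTAZ #2. The groups were far apart with siTAZ #1 and closer, but without overlap, with siTAZ #2. COL11A1 fell with siTAZ #1 to 0.413 of siNTC (log2 fold change -1.28, standard error 0.08, FDR 0.000841). It rose with siTAZ #2 to 1.22 times siNTC (log2 fold change 0.29, standard error 0.08, FDR 0.0379). Between the siRNAs its difference was -1.57 on the log2 scale (standard error 0.08, FDR 0.000506), the largest of the 8 genes. The fall with siTAZ #1 and this difference kept their calls in all 20 alternatives, with highest FDRs of 0.0250 and 0.0112. The rise with siTAZ #2 did not, with FDRs of 0.196 and 0.203 without siNTC replicates 1 and 2 and of 0.0791 and 0.198 without siTAZ #2 replicates 1 and 2, in a range of 0.00718 to 0.203.

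COL27A1 (chromosome 9, 116917817 to 117074791, plus strand) had between 272 and 1044 counts per library, the lowest of the 8 in the siNTC and siTAZ #1 libraries, while COL5A3 was lower with siTAZ #2, at 415 and 432 counts. It was at 17.2 and 22.3 CPM with siNTC, at 27.4 and 32.0 CPM with siTAZ #1, and at 43.5 and 40.0 CPM with siTAZ #2. All 4 siTAZ libraries were above siNTC, and siTAZ #2 was the highest. COL27A1 rose with siTAZ #2 to 2.11 times siNTC (log2 fold change 1.08, standard error 0.17, FDR 0.00764). With siTAZ #1 the log2 fold change was 0.59 (standard error 0.17, FDR 0.0615), and the siRNAs differed by -0.49 (standard error 0.17, FDR 0.0803). Leaving out siNTC replicate 1 (FDR 0.0582) or siTAZ #2 replicate 1 (FDR 0.0522) ended the call with siTAZ #2, with a range of 8.99e-10 to 0.0582. The value with siTAZ #1 passed in 4 of the 20 alternatives, among them without siTAZ #1 replicate 1 (FDR 0.00622), in a range of 0.00622 to 0.482. The difference between the siRNAs also passed in 4, among them without siTAZ #1 replicate 2 (FDR 0.0214), in a range of 0.0214 to 0.492, and it was -0.24 with the GC offset (FDR 0.363).

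**Figure D3:**
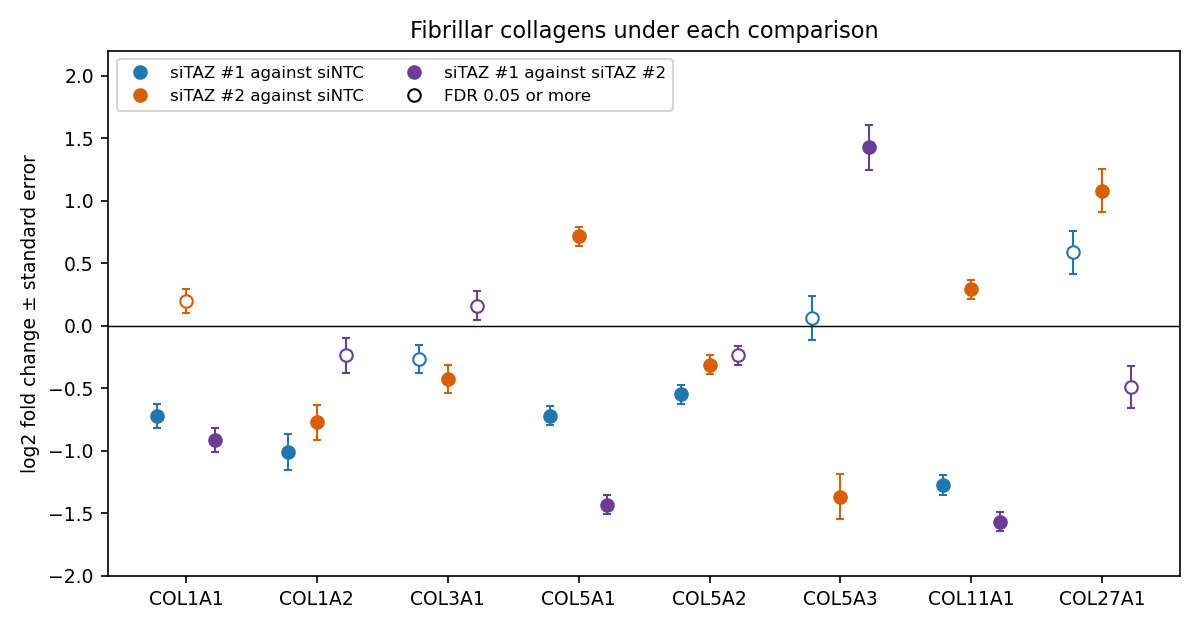
Log2 fold change with its standard error (y axis) of each fibrillar collagen gene (x axis) for siTAZ #1 against siNTC, siTAZ #2 against siNTC and siTAZ #1 against siTAZ #2, with filled points at FDR under 0.05 and open points at 0.05 or more. COL5A1 lay at -0.72 with siTAZ #1 and at 0.71 with siTAZ #2, and COL11A1 at -1.28 and 0.29, while COL1A2 and COL5A2 lay below 0 with both siRNAs.

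**Figure D4:**
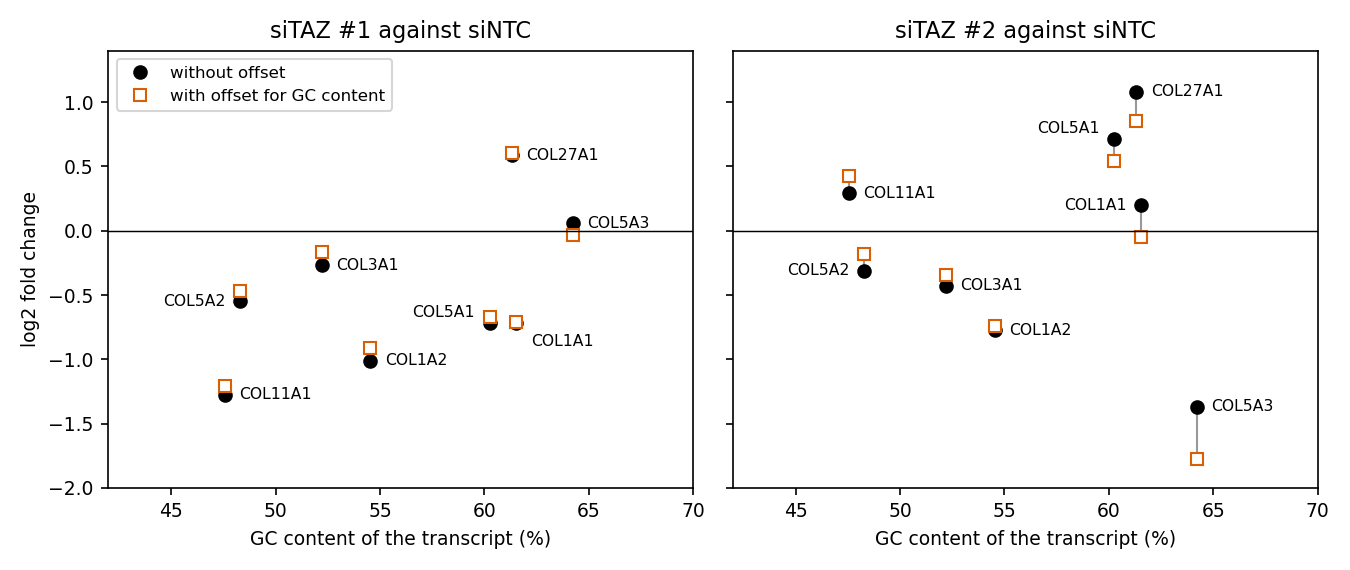
Log2 fold change against siNTC (y axes) of the 8 genes by the GC content of the transcript (x axes, percent), for siTAZ #1 on the left and siTAZ #2 on the right, without (filled circles) and with (open squares) an offset for GC content. The offset moved COL1A1 with siTAZ #2 from 0.20 to -0.05 and COL5A3 from -1.37 to -1.77, and with siTAZ #1 every gene but COL5A3 kept its sign.

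The order of the genes was read from RPKM (CPM per kilobase of the canonical transcript). With siNTC, COL1A2 was at 2452 ± 54.3 RPKM (SD, n = 2), followed by COL1A1 at 1574 ± 93.9, COL3A1 at 1028 ± 72.8, COL5A2 at 264 ± 7.07, COL5A1 at 56.0 ± 2.00, COL11A1 at 22.6 ± 0.0607, COL5A3 at 9.46 ± 0.953 and COL27A1 at 2.53 ± 0.456 RPKM. With siTAZ #1, COL5A3 and COL11A1 changed places, at 9.85 ± 0.695 and 9.33 ± 0.0226 RPKM. With siTAZ #2, COL1A1 stood above COL1A2, at 1806 ± 58.6 and 1436 ± 154 RPKM, and COL27A1 stood above COL5A3, at 5.34 ± 0.310 and 3.66 ± 0.763 RPKM. The ranges of neighbours in these orders did not overlap, although those of COL5A3 and COL11A1 with siTAZ #1 were next to each other, from 9.35 to 10.3 and from 9.32 to 9.35 RPKM. The order also depends on the lengths assumed. With the merged exons of all annotated isoforms, the mean ratios of COL3A1 to COL1A1 and to COL1A2 with siTAZ #1 were 1.11 and 1.23. By these lengths COL3A1 stood above both type I chains with siTAZ #1, and below both with siNTC and siTAZ #2.

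As a share of all counts, the 8 genes took 2.92% and 2.95% with siNTC, 1.86% and 1.79% with siTAZ #1, and 2.39% and 2.60% with siTAZ #2. All 4 siTAZ libraries were below siNTC, and siTAZ #1 was the lowest. The means differed from siNTC by -1.11 percentage points with siTAZ #1 and by -0.44 with siTAZ #2 (exact permutation p = 0.333 for each and 0.133 for the 4 siTAZ libraries together, the smallest values possible). Without the region of near-missing counts in the totals, siTAZ #1 replicate 2 was at 1.80%, replicate 1 at 1.93%, and siNTC at 3.04% and 3.07%. Summed per length, the pool was at 5408 ± 69.8 RPKM with siNTC, 3264 ± 163 with siTAZ #1 and 4347 ± 309 with siTAZ #2 (SD, n = 2 each).

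The make-up of this pool is described per group, without a test, and it rests on the lengths of the canonical transcripts. COL1A2 was its largest part with siNTC, at 45.3% ± 0.419, and made up 37.2% ± 3.86 with siTAZ #1 and 33.0% ± 1.20 with siTAZ #2. COL1A1 made up 29.1% ± 1.36 with siNTC and 29.3% ± 2.31 with siTAZ #1, and was the largest part with siTAZ #2, at 41.6% ± 1.61. COL3A1 made up 19.0% ± 1.59, 26.2% ± 1.09 and 17.6% ± 0.812. COL5A2 stayed between 4.74% and 5.80% of the pool in every library, and COL5A1 took 1.02% to 1.06% in siNTC and siTAZ #1 and 2.24% and 2.00% with siTAZ #2. These errors are SDs over 2 libraries.

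**Figure D5:**
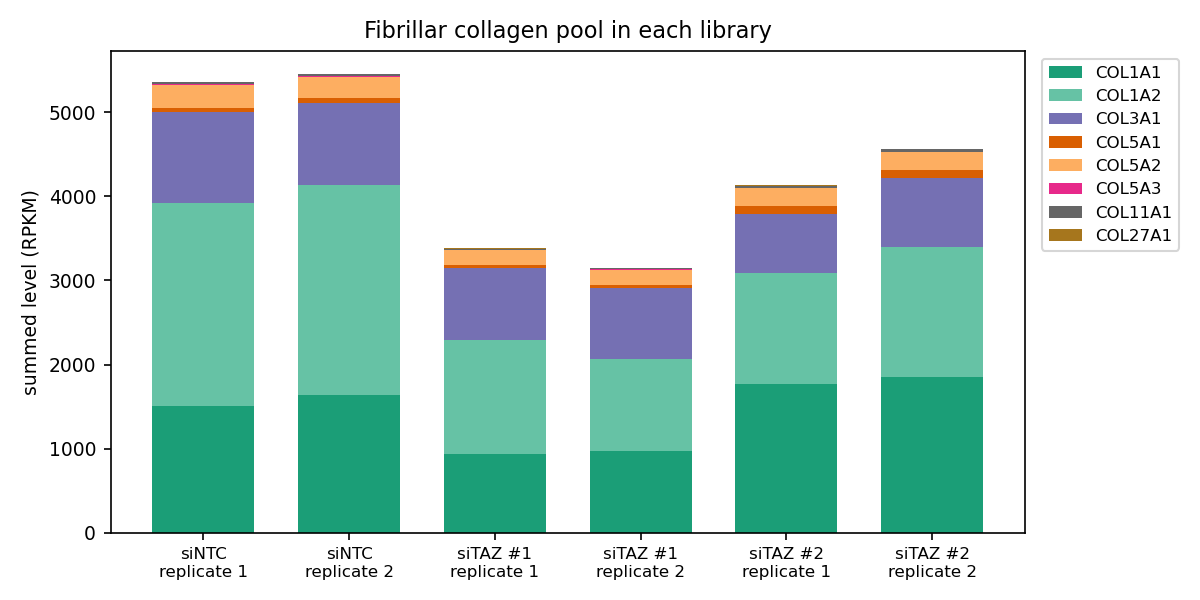
Summed level per length (y axis, RPKM, from 0) of the 8 fibrillar collagen genes in each library (x axis), with each bar divided by gene. The bars were tallest with siNTC, at 5359 and 5458 RPKM, and shortest with siTAZ #1, at 3380.0 and 3149 RPKM, and the COL1A1 part was largest with siTAZ #2.

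Across the 6 libraries, COL1A1 followed COL11A1 (Pearson r of log2 CPM 0.99) and COL5A1 (0.95), and COL1A2 followed COL5A2 (0.94), whereas COL1A1 and COL1A2 had an r of 0.50. COL27A1 and COL3A1 ran against each other (r -0.95). These are descriptions over 6 libraries in 3 groups, so they mainly repeat the order of the groups. Among 4695 genes with a mean of at least 50 CPM, the genes most like COL1A1 were GOLM1, SOCS3 and PES1, and those most like COL1A2 were COPS7A, RHOC and WASF2. For COL3A1 they were PHF12, DCAF12 and PLCD3, for COL5A1 RUSC2, PIP5K1C and FKBP9L, and for COL5A2 KDM5B, OSBP and CBX5. For COL5A3 they were INF2, HSPA1A and PBX2, for COL11A1 TTC1, EPHA4 and MVP, and for COL27A1 VPS8, KLF10 and PARK7. The r of these genes was between 0.972 and 0.999.

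The genes that act on fibrillar collagens were examined by their role. Calls in each list with all 6 libraries are to be read against the shares of all genes tested. These were 9.78% lower and 10.8% higher with siTAZ #1, and 14.4% lower and 14.1% higher with siTAZ #2. No list was tested as a set. COL24A1, a fibrillar chain that is not among the 8, was at 4.88 and 5.995 CPM with siNTC, at 22.7 and 24.6 CPM with siTAZ #1, and at 30.9 and 30.6 CPM with siTAZ #2. It rose 4.35-fold with siTAZ #1 (log2 fold change 2.12, standard error 0.17, FDR 0.00142) and 5.65-fold with siTAZ #2 (log2 fold change 2.50, standard error 0.17, FDR 0.000723). Of the 6 fibril-associated collagens tested, 1 fell and 2 rose with each siRNA. COL12A1, which lies on the surface of type I fibrils, rose with both, from 967 and 951 CPM with siNTC to 1934 and 1857 CPM with siTAZ #1 and 2384 and 2582 CPM with siTAZ #2 (log2 fold changes 0.98 and 1.37, FDR 0.00172 and 0.000642). COL14A1, which also binds fibrils, differed most between the siRNAs, at 17.7 and 16.7 CPM with siTAZ #1 and 2.94 and 5.32 CPM with siTAZ #2.

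Of 21 genes of procollagen folding and hydroxylation, 3 fell and 5 rose with siTAZ #1, against 9.78% and 10.8% of all genes. With siTAZ #2, 3 fell and 8 rose, against 14.4% and 14.1%. P4HA3, a prolyl 4-hydroxylase subunit, rose with both siRNAs (log2 fold changes 1.36 and 1.55, FDR 0.0023 and 0.00111), as did PLOD2, a lysyl hydroxylase (1.24 and 1.65, FDR 0.0155 and 0.00485). SEC23A, a coat protein of the vesicles that carry procollagen, fell with both (-0.43 and -0.73, FDR 0.0154 and 0.00227). LEPREL1, a prolyl 3-hydroxylase, went from 44.9 and 51.7 CPM with siNTC to 24.4 and 26.4 CPM with siTAZ #1 and was at 59.9 and 60.6 CPM with siTAZ #2. Its difference between the siRNAs was -1.25 on the log2 scale (FDR 0.00203).

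Of 5 genes of propeptide processing tested, 1 fell and 1 rose with siTAZ #1, and 2 rose with siTAZ #2. The procollagen N-proteinases ADAMTS3 and ADAMTS14 differed between the siRNAs in opposite directions. ADAMTS3 rose with siTAZ #1, from 5.33 and 5.87 to 19.0 and 15.5 CPM, and ADAMTS14 rose with siTAZ #2, from 2.03 and 3.53 to 15.7 and 15.1 CPM. Of the 5 lysyl oxidases, which crosslink fibrils, 1 rose with siTAZ #1 and 2 with siTAZ #2. LOXL2 was at 737 and 773 CPM with siNTC, 644 and 575 CPM with siTAZ #1 and 1341 and 1547 CPM with siTAZ #2, and LOXL1 likewise rose with siTAZ #2 (log2 fold change 0.79, FDR 0.00325).

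Of 9 fibril-binding regulators tested, 3 fell and 2 rose with siTAZ #1, and 4 fell and 1 rose with siTAZ #2. One of the 9 is BGN, which encodes biglycan and lies in the region of near-missing counts, at 321 and 326 CPM with siNTC, 246 and 1.29 CPM with siTAZ #1 and 364 and 439.8 CPM with siTAZ #2. Without siTAZ #1 replicate 2, the log2 fold change of BGN was -0.40 with siTAZ #1 and 0.31 with siTAZ #2. More genes of this list were called in that fit, as was a larger share of all genes. The small proteoglycans decorin and lumican, which coat fibrils, fell with both siRNAs. DCN was at 720.4 and 749 CPM with siNTC, 501 and 426 CPM with siTAZ #1 and 254 and 233 CPM with siTAZ #2. LUM had log2 fold changes of -0.54 (FDR 0.0273) and -1.92 (FDR 0.000657). THBS2, a matricellular protein, rose with both (0.53 and 0.69, FDR 0.032 and 0.0106), while POSTN, which encodes periostin, rose with siTAZ #1 and fell with siTAZ #2 (0.97 and -0.48, FDR 0.00237 and 0.0137).

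Of 8 collagen receptors and uptake genes, 1 fell and 2 rose with siTAZ #1, and 1 fell and 5 rose with siTAZ #2. ITGA2, an integrin subunit that binds type I collagen, went from 151 and 128 CPM with siNTC to 771 and 932 CPM with siTAZ #1 and 245 and 259 CPM with siTAZ #2. The discoidin receptors, kinases that bind fibrillar collagen, moved apart, with DDR1 higher (0.69 and 1.84, FDR 0.00907 and 0.00063) and DDR2 lower (-0.40 and -0.77, FDR 0.0386 and 0.00369) with both siRNAs. Of 6 genes of fibrillar collagen breakdown tested, 4 rose with siTAZ #1 and 3 with siTAZ #2. TIMP1, an inhibitor of collagenases, lies in the region of near-missing counts and was at 728 and 715 CPM with siNTC, 1211 and 5.43 CPM with siTAZ #1 and 1113 and 1370.4 CPM with siTAZ #2. Without siTAZ #1 replicate 2 its log2 fold change was 0.75 with siTAZ #1 and 0.78 with siTAZ #2. MMP14, a membrane-bound collagenase, rose from 746 and 764 CPM to 1888 and 1598 CPM with siTAZ #1 and 1255 and 1546 CPM with siTAZ #2. MMP1, the interstitial collagenase, rose with siTAZ #1 from 783 and 685 to 2223 and 2346 CPM and was at 618 and 672 CPM with siTAZ #2. CTSK, a collagen-degrading protease, rose with siTAZ #1 (0.90, FDR 0.01), and TIMP2, an inhibitor of these proteases, rose with both (0.46 and 0.69, FDR 0.0116 and 0.00245).

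Of 22 regulators of the type I collagen genes tested, 3 fell and 9 rose with siTAZ #1, and 6 fell and 5 rose with siTAZ #2. TGFBR1, a receptor of TGF-β, rose from 13.9 and 14.9 CPM to 97.9 and 104 CPM with siTAZ #1 and 70.3 and 71.0 CPM with siTAZ #2. TGFBR2, its partner, was at 481 and 454 CPM with siNTC, 590.2 and 550.2 CPM with siTAZ #1 and 173 and 172 CPM with siTAZ #2. FLI1, a repressor of COL1A2, rose with siTAZ #1 and fell with siTAZ #2 (0.77 and -1.09, FDR 0.0344 and 0.00953). RUNX2, a bone transcription factor, rose with both (2.25 and 2.02, FDR 0.00115 and 0.00103), and CTGF, a matricellular growth factor, fell with both (-1.48 and -2.04, FDR 0.00102 and 0.000503). Over the 9 lists, the 47 calls of the named genes against siNTC kept their direction without any single library. The genes were named from these same libraries, so this was largely fixed beforehand. Of these calls, 15 were lost without siNTC replicate 1, 18 without siNTC replicate 2, 5 and 6 without siTAZ #2 replicates 1 and 2, and 1, DDR2 with siTAZ #1, without siTAZ #1 replicate 2. Without siTAZ #1 replicate 2, calls in other lists changed as well, while a larger share of all genes was called with both siRNAs. With siTAZ #1, P4HA1, P4HA2 and LEPREL4 were gained and FKBP10 lost among the genes of folding and hydroxylation. COL9A1 was lost from the fibril-associated collagens, and the regulators gained SMAD7 and TGFBR2 and lost MYB and SMAD2. With siTAZ #2, genes of folding and hydroxylation, receptors and regulators were gained, and COL2A1 joined the other fibrillar chains that rose. Whether any of these genes had a part in the collagen levels was not tested.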

How the data were processed

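RNA of HFL-1 cells was sequenced on an Ion Proton. The authors used TMAP to align the reads to hg19 and HTSeq 0.6.1 to count them per gene, and the deposited values are raw read counts, 1 column per library, without normalization. The annotation is called Ensembl, while the table lists symbols. Strand setting and counting mode are not given in the sources used here, and among the entries with a position only 3 microRNAs, with at most 2 counts, overlap a fibrillar collagen gene. From 23368 entries, 13 with a date in place of a symbol (0.0458% to 0.0506% of a library's counts) were left out.

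Counts were analysed in R 4.3.3 with edgeR 4.0.16: filterByExpr by group, TMM, a quasi-likelihood fit of all 6 libraries, and Benjamini-Hochberg adjustment over 14053 genes (FDR, threshold 0.05). The standard error is the log2 fold change divided by the root of F. Positions, transcript lengths and GC content come from GENCODE on GRCh37, with a position for 21478 of 23368 entries. The bases upstream of COL1A1 and COL5A2 are not reported here. P-values of the fit rest on a spread estimated over all 6 libraries together, with 2 labelled as replicates in each group. The authors report duplicate transfections of the TAZ siRNAs, all in a single cell line. Libraries of the same group differed beyond sampling noise. Averaged over genes, the chi-square was 5.53 in siNTC, 93.8 in siTAZ #1 and 11.9 in siTAZ #2. The siTAZ #1 value includes the region of near-missing counts in its replicate 2. Its size without that region was not tested. Chain ratios and shares were compared by two-sided exact permutation tests.

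The alternatives, 20 in all, were DESeq2 1.42.0, the exact test of edgeR within a comparison (4 libraries), scaling by RLE, upper quartile or total, no filter or a filter at a mean count of 50, a quasi-likelihood fit of 4 libraries, the replicate number as a block, each library left out, the region from RANGAP1 left out, libraries thinned to the smallest total, offsets for GC content and length (lowess), and FDR 0.1. Where 1 library stood for a group, its spread was taken from the other groups. Besides the 8 genes and WWTR1, the text names from each pathway list up to 3 genes called the same way by both siRNAs with the largest mean change and up to 2 with the largest called difference between siRNAs, and the 3 genes most correlated with each member. The members, lists and rules were chosen with earlier results of these data known.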

Additional observations from a re-analysis of the deposited data

Results flagged for a closer look

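The following results differed between the siRNAs by a direct test of siTAZ #1 against siTAZ #2 (edgeR's quasi-likelihood test, FDR under 0.05), although both were made against the same gene. Values are log2 differences, siTAZ #1 minus siTAZ #2. Among the fibrillar collagens, COL1A1 differed by -0.92, COL5A1 by -1.43 and COL11A1 by -1.57, with siTAZ #1 the lower, and COL5A3 by 1.43, with siTAZ #1 the higher. The target, WWTR1, was itself lower with siTAZ #1 by -0.70, a difference that lost its call in edgeR's exact test (FDR 0.236, range over the alternatives 5.02e-06 to 0.236). The part of this difference in the collagen values was not tested.

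Of all genes tested, 13.4% were lower and 15.2% higher with siTAZ #1 than with siTAZ #2. In the 9 lists of genes that act on collagen, which name 99 genes, not all of them tested, 18 were lower and 23 higher. Of those chosen by the naming rule, the lower ones were ADAMTS14 (-1.88), ITGA10 (-1.28), LEPREL1 (-1.25), LOXL2 (-1.24), DDR1 (-1.15), COL16A1 (-0.94), LOXL1 (-0.89) and COL12A1 (-0.39). The higher ones among the genes so chosen were COL14A1 (2.06), FLI1 (1.86), MMP1 (1.82), ITGA2 (1.76), TGFBR2 (1.73), ADAMTS3 (1.53), POSTN (1.45), LUM (1.39), DCN (0.93), CTSK (0.89), FKBP14 (0.57), CTGF (0.56), TGFBR1 (0.51), DDR2 (0.38) and SEC23A (0.30).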

How the results depend on the processing

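Directions mostly held. Of all the values of the 8 genes and their ratios, those that changed sign were COL1A1 with siTAZ #2 (-0.0457 with the GC offset), COL5A3 with siTAZ #1 (-0.0330 with the GC offset, and -0.0508 to 0.154 without 1 library, at -0.0508 without siNTC replicate 2 and -0.0160 without siTAZ #1 replicate 2) and the log2 ratio of COL5A1 to COL1A1 with siTAZ #1 (0.0362 with the GC offset, and -0.0616 to 0.0599 without 1 library, at 0.0237 without siNTC replicate 1 and 0.0599 without siTAZ #1 replicate 2), all values near 0. The GC offset also moved the log2 ratio of COL1A1 to COL1A2 to 0.70 with siTAZ #2 and to -0.49 between the siRNAs, that of COL5A1 to COL5A2 to 0.73 and -0.93, and that of COL3A1 to COL1A1 to -0.30 with siTAZ #2 and 0.85 between the siRNAs. It brought COL3A1 with siTAZ #1 to -0.17 and COL27A1 between the siRNAs to -0.24. Calls depended on the tool, and so did the share of all genes called. With siTAZ #1, 2 members fell in the exact test, where 3.59% of all genes were called lower. With DESeq2, at FDR 0.1 and without the region of near-missing counts, 1 member rose, against 14.8%, 15.8% and 15.7% of all genes. Between the siRNAs, 5 members were lower in these 3 alternatives, against 16.1%, 18% and 18.6% of all genes.

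Leaving out each library gave 2 to 6 members lower and 0 to 1 higher with siTAZ #1, 1 to 4 lower and 1 to 4 higher with siTAZ #2, and 3 to 5 lower between the siRNAs. For the 9 pathway lists these ranges were 1 to 17 lower and 9 to 36 higher with siTAZ #1 (12 and 27 with all libraries), 9 to 19 lower and 17 to 37 higher with siTAZ #2 (15 and 30), and 9 to 27 lower and 12 to 25 higher between the siRNAs (18 and 23). The share of all genes called changed between these fits as well. Against siNTC, it was smallest without a siNTC library and largest without a siTAZ #1 library. These ranges of calls therefore cannot be read as instability of the collagen genes alone. The log2 ratio of COL1A1 to COL1A2 ranged from 0.11 to 0.49 with siTAZ #1 and from -0.86 to -0.49 between the siRNAs. The difference in the share of counts ranged from -0.55 to -0.34 percentage points with siTAZ #2 and from -0.78 to -0.57 between the siRNAs.

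With the replicate number as a block, 5 members and 7 pathway genes fell with siTAZ #1, where 5.86% of all genes were called lower. With siTAZ #2, 2 members fell and 2 rose, against 10.1% and 9.46% of all genes. COL3A1 (FDR 0.0860), COL5A2 (FDR 0.0756) and COL11A1 (FDR 0.0827) lost their calls with siTAZ #2. Deviations of same-numbered libraries had correlations of -0.00069, 0.011 and -0.077. The labels do not say whether same-numbered libraries were handled together, and these values cannot settle it. With 2 libraries a group, small changes and the calls near the threshold are the least certain values.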

Other observations

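The fibrillar chain genes of cartilage other than the 8 were low. COL2A1 was at 8.69 and 6.75 CPM with siNTC, at 6.32 and 13.4 CPM with siTAZ #1 and at 16.9 and 9.72 CPM with siTAZ #2, and neither comparison with siNTC passed the threshold (FDR 0.597 and 0.233), although COL2A1 was called higher with siTAZ #2 without siTAZ #1 replicate 2. COL11A2 was at 1.14 and 0.568 CPM with siNTC, where it had 18 and 9 counts, at 1.29 and 4.78 CPM with siTAZ #1 and at 4.95 and 4.89 CPM with siTAZ #2. With siTAZ #2 the log2 fold change of COL11A2 was 2.52 (standard error 0.69, FDR 0.0424), and the siTAZ #1 replicates differed more than 3-fold. The 6 smooth muscle and cartilage markers summed to 75.7 and 79.4 CPM with siNTC, to 112 and 129 CPM with siTAZ #1 and to 67.6 and 83.5 CPM with siTAZ #2. Of these markers, 1 fell and 1 rose with each siRNA. The shares of all genes were 9.78% and 10.8% with siTAZ #1, and 14.4% and 14.1% with siTAZ #2.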
